A study of Mus musculus with 12 samples.

Results

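The libraries F1-2, made from a single myofiber, and F5-3, made from a pool of 5 myofibers, were described against the other 4 libraries of the same kinds, which were F1-1 and F1-3 (single fibers) and F5-1 and F5-2 (pools of 5). They are 2 of the 12 libraries of a study of the extensor digitorum longus (EDL), a fast hindlimb muscle of the mouse, in which single myofibers, pools of 5, pools of 20 and whole muscle were each sequenced as 3 libraries. All 4 groups came from C57BL/6 mice and carried no treatment or engineered allele in the labels, which give neither the age of the mice nor which animal a library came from. Single fibers were lysed directly in the buffer of SMART-Seq HT, a kit that copies very small amounts of RNA into full-length cDNA. Trizol served for the RNA of whole muscle, and for the pools no lysis step is given on its own. The question addressed here was how far libraries of one kind differ from each other, and which genes set these 2 apart from the other 4.

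A myofiber is a single multinucleated cell filled with sarcomeres, and its RNA is dominated by contractile and glycolytic genes. Fibers differ in how much they rely on mitochondria: oxidative fibers hold more respiratory chain, fatty acid handling proteins and myoglobin than glycolytic ones, and the myosin heavy chain isoform (Myh4 for type 2B, Myh1 for 2X, Myh2 for 2A, Myh7 for slow type 1) names the fiber type. Isolating fibers from a muscle is also known to switch on immediate early and stress genes, and isolated fibers can carry attached capillary, fibroblast or satellite cells. Because these are bulk libraries, fewer cells of a type and less RNA of that type per cell cannot be told apart.

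The values that chose the 2 libraries were Pearson correlations of log2(CPM + 0.5) across the 6183 genes that averaged at least 10 CPM in the 12 libraries. Here CPM is a gene's read count scaled to a common library total, with TMM factors that correct for differences in RNA composition. F1-2 and F5-3 had a Pearson r of 0.944 with each other, against 0.824 between F1-2 and each of the other single fibers and 0.739 and 0.673 between F5-3 and the other pools of 5. The other libraries of each kind were as close to their own mate, at 0.941 for F1-1 with F1-3 and 0.946 for F5-1 with F5-2. With the whole muscle libraries, F5-3 had an r of 0.735 to 0.756 and F1-2 of 0.700 to 0.713, and the next of the 6 was F5-1 at 0.602 to 0.627. A pool of 20, F20-3, stood at 0.664 to 0.688 and was not eligible under the rule. These correlations are across genes, which share their library, and they are given as a description of the choice. Both were closer to the other single fibers than to muscle, with an r of 0.824 for F1-2 and of 0.844 and 0.860 for F5-3, whereas F1-2 was closer to muscle than to F5-1 (0.649) and F5-2 (0.581). The whole muscle libraries had an r of 0.978 to 0.988 among themselves. The name "muscle-like" therefore holds only in comparison with the other fiber libraries, and the 2 are called F1-2 and F5-3 below.

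**Figure D1:**
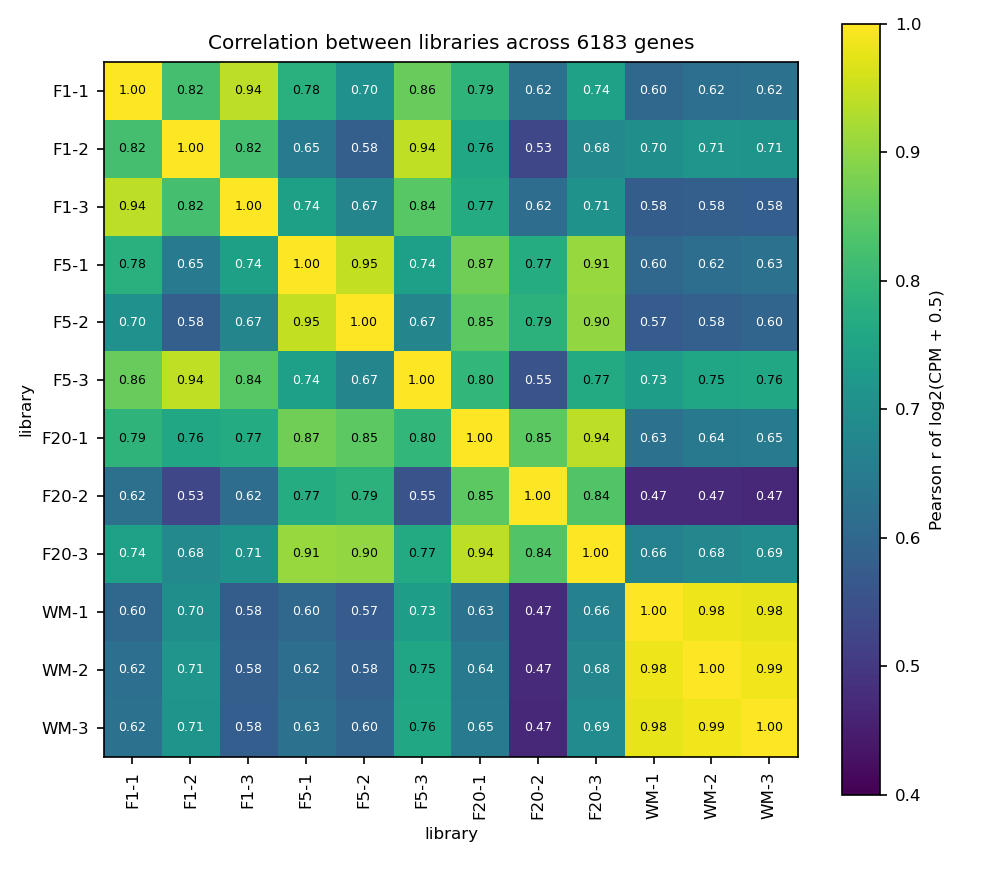
Pearson r of log2(CPM + 0.5) across 6183 genes for every pair of the 12 libraries, on a color scale from 0.4 to 1, with each r printed in its cell. F1-2 and F5-3 share an r of 0.94, and the rows of both are brighter toward whole muscle than those of the other 4 single fiber and pool of 5 libraries.

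Library totals ran from 4702823 to 27787120 counted reads, and F1-2 (27787120) and F5-3 (24719718) were the deepest 2. At a common depth of 4702823 reads they nevertheless showed the fewest genes with a read of the 12, 13563 in F1-2 and 15274 in F5-3, against 15705 to 30211 in the other 4 and 17976 to 18261 in whole muscle. Reads on 1506 olfactory, vomeronasal and taste receptor genes, which muscle is not known to use, touched 4.85% of those genes in F1-2 and 4.58% in F5-3, beside 2.32% to 4.85% in whole muscle, but 9.89% to 68.9% in the other 4. This percentage is not corrected for depth. As a share of all reads these genes took 9.43 RPM in F1-2 and 5.91 in F5-3, below whole muscle (18.0 to 23.6), 22.5 in F1-3, within its range, and 70.8 to 583 in F1-1, F5-1 and F5-2. Mitochondrial ribosomal RNA took 3.15% and 2.39% of reads in F1-2 and F5-3 and 2.34% to 2.76% in whole muscle, against 5.32% in F1-1, 7.21% in F1-3, 38.3% in F5-1 and 34.2% in F5-2. The 2 libraries thus also differed from the other 4 in depth, background and ribosomal RNA, and the part of these in the results was not tested.

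Of 6170 genes averaging at least 10 CPM in the 6 libraries, 2039 (33.0%) were higher in both F1-2 and F5-3 than in every one of the other 4, and 729 (11.8%) were lower in both. With a gap of at least 2-fold, 341 (5.53%) were higher and 144 (2.33%) lower, so 70.31% of these genes were higher. Under RLE factors, the size factors of DESeq2, the counts were 226 and 192 (54.07% higher), and under upper-quartile factors 264 and 168 (61.11%), so the balance of the directions depends on the scaling. The count of higher genes was 698 without F1-1 and 651 without F5-3, and that of lower genes 228 without F5-2 and 437 without F5-3. Since the 2 libraries were chosen on all genes, no test was made between the 2 and the 4, and these counts describe the choice. Within their own kinds, F1-2 was 2-fold or more above both F1-1 and F1-3 for 840 genes (13.6%), and F5-3 was above both F5-1 and F5-2 for 1957 (31.7%). The 598 genes (9.69%) found in both of these counts were 71.2% of those of F1-2 and 30.6% of those of F5-3. The 225 genes (3.65%) that were 2-fold or more below both mates in each kind were 30.5% of those of F1-2 and 44.5% of those of F5-3.

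Nuclear genes of the respiratory chain, which encode the subunits that pass electrons from NADH and succinate to oxygen and make ATP, were higher in F1-2 and F5-3. Of the 36 on the list, 13 lay above all of the other 4 libraries in both by 2-fold or more, beside 5.53% of all genes. At any size 35 of the 36 did (34 under RLE and 35 under upper-quartile factors), beside 33.0% of all genes. The exception, named here after its values were seen, was Cyc1, cytochrome c1, with 539 CPM in F1-2 and 525 in F5-3 against 271 to 547 in the other 4. Relative to the whole muscle mean, the list's median log2 level was 1.57 in F1-2 and 1.22 in F5-3, against 0.30 in F1-1, -0.28 in F1-3, -0.08 in F5-1 and -0.62 in F5-2. The median over all genes moved too, to 0.44 in F1-2 and 0.43 in F5-3 and to between -0.47 and 0.28 in the others, and RLE factors changed it to 0.37, 0.27 and between -0.23 and 0.18. Relative to that median, which takes the scaling out, the respiratory chain stood at 1.13 in F1-2 and 0.78 in F5-3 and at -0.40 to 0.03 in the other 4.

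The widest respiratory gap was that of Uqcrc2, a core subunit of complex III (chr7:120635176-120659524, plus strand, GRCm38), with 721 CPM in F1-2 and 452 in F5-3. The other 4 held 109 in F1-1, 97.7 in F1-3, 50.5 in F5-1 and 14.9 in F5-2, and whole muscle 336, 375 and 309. The 2 libraries lay above every whole muscle library for this gene and the other 4 below every one. The 3 most abundant members of the list were the ATP synthase beta subunit Atp5b and the muscle forms of cytochrome oxidase subunits, Cox6a2 and Cox8b. Atp5b reached 5737 CPM in F1-2 and 4163 in F5-3 against 2151 to 2799 in the other 4 and 2119 to 2519 in whole muscle. Cox6a2 reached 5701 CPM in F1-2 and 6276 in F5-3 against 1408 to 3042, and Cox8b 4012 CPM in F1-2 and 3686 in F5-3 against 1565 to 3018. For these abundant genes the other 4 libraries overlapped or exceeded whole muscle, which held 711 to 1426 CPM of Cox6a2 and 313 to 636 of Cox8b, and F1-2 and F5-3 lay higher still. Ndufa4, a subunit named after its values were seen, had 2925 CPM in F1-2 and 2072 in F5-3 against 328 to 599.5.

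Promoters of respiratory genes are known to carry binding motifs of NRF-1, a factor that controls nuclear genes of mitochondria, so the promoter windows of these 36 genes were searched. RefSeq windows (GRCm38.p6, 250 bases before to 50 after the start) were held for 24 of them, and the core motif of NRF-1, read on either strand, occurred in 4, Atp5c1, Sdha, Sdhd and Uqcrc1, beside 4.603% of all 32851 windows. The 3 whose match lies before the gene start are shown over 60 bases, read 5′ to 3′ along the strand of the gene with the motif match in capitals, since they are the places where the letters of one known regulator can be seen in genes that were higher together:
Atp5c1, chr2:10080415-10080474, minus strand: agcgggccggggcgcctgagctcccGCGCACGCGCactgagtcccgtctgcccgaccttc
Sdha, chr13:74350304-74350363, minus strand: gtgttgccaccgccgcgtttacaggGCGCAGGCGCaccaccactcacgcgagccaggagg
Sdhd, chr9:50603894-50603953, minus strand: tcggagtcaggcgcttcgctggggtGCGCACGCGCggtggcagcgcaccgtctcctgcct
Atp5c1, the gamma subunit of ATP synthase, had 3870.1 CPM in F1-2 and 3183 in F5-3 against 424 to 1859.7 in the other 4. Sdha, a subunit of succinate dehydrogenase, had 905 CPM in F1-2 and 595 in F5-3 against 275 to 456. Sdhd, another subunit of that enzyme, had 1284 CPM in F1-2 and 796 in F5-3 against 101 to 370.2. These 3 genes were named for the match, and all lay above the other 4 libraries. So did 35 of the 36 genes of the list, with or without a match, so their levels say nothing of the motif. The cyclic AMP response letters TGACGTCA were found in 3 of the 24 windows (Cycs, Ndufa10 and Uqcrfs1) beside 1.79% of all, CCAAT in 7 beside 37.408%, and TTCNNNGAA, the letters bound by STAT factors, in 0 beside 8.298%. For the 12 genes with the widest downward gaps, 10 of which have a window, the same searches found the NRF-1 core in 2 (Nfat5 and Safb2), TGACGTCA in 1 (Plk2), TTCNNNGAA in 1 (Csf2rb2) and CCAAT in 2 (Il1r1 and Pgm2). For the 12 with the widest upward gaps, 9 of which have one, they found the NRF-1 core in 1 (Ptgr2), CCAAT in 3 (Mb, Snrpd3 and Tsfm) and the others in 0. A match is a description of letters and says nothing of binding here.

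Genes of fatty acid uptake and oxidation were higher in F1-2 and F5-3 in most members. Of 20 on the list, 18 averaged at least 10 CPM. Of these, 12 (11 under RLE and under upper-quartile factors) lay above all of the other 4, beside 33.0% of all genes. By 2-fold or more 5 did, beside 5.53% of all genes. Fabp3, the fatty acid carrier of the muscle cytosol (chr4:130308595-130315463, plus strand), had the widest upward gap of the protein-coding genes, with 975 CPM in F1-2 and 1152 in F5-3. It stood at 194 in F1-1, 124 in F1-3, 174 in F5-1 and 107 in F5-2, and at 393, 545 and 526 in whole muscle. The 2 libraries were above whole muscle and the other 4 below it, with no overlap. Acaa2, the last enzyme of mitochondrial beta-oxidation, had 303 CPM in F1-2 and 295 in F5-3 against 80.6 to 209 in the other 4 and 227 to 271 in whole muscle. Mb, myoglobin, the oxygen store of oxidative fibers (chr15:77015487-77050670, minus strand), is on no list and had 338 CPM in F1-2 and 408 in F5-3, while the other 4 held 19.8 in F1-1, 19.3 in F1-3, 89.7 in F5-1 and 89.9 in F5-2. All 6 fiber libraries were below whole muscle for Mb, at 828, 1047 and 965.

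Lpl, which splits blood triglycerides at the capillary wall, went the other way in the pools, with 397 CPM in F5-1 and 600.3 in F5-2 against 193 in F5-3, and 8.59, 129 and 13.1 in F1-1, F1-2 and F1-3. Endothelial markers were also highest in F5-1 and F5-2, with a summed level of 969 and 734 CPM against 106 in F5-3 and 3.24 to 16.6 in single fibers, and their part in the level of Lpl was not tested. The fatty acid list's median relative to whole muscle was 0.07 in F1-2 and -0.16 in F5-3, against -1.57 to -1.04 in the other 4. Relative to the median of all genes it was -0.37 and -0.59, with F5-2 close by at -0.64 and the others at -1.69 to -0.93, so this list separated the libraries less clearly than the respiratory chain. Ckmt2, the mitochondrial creatine kinase, and Cs, citrate synthase, were added after their values were seen. Ckmt2 had 4644 CPM in F1-2 and 2256 in F5-3 against 286 in F1-1, 400.3 in F1-3, 1188 in F5-1 and 1130.0 in F5-2, and Cs 789.9 CPM in F1-2 and 646 in F5-3 against 157 to 439.

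Messages made inside the mitochondrion did not follow the nuclear ones. Of the 11 mitochondrially encoded mRNAs averaging at least 10 CPM, 0 were above, and 0 below, all of the other 4 in both libraries. The list's median relative to whole muscle was 3.54 in F1-2 and 2.13 in F5-3, and 1.67, 1.89, 2.64 and 3.53 in F1-1, F1-3, F5-1 and F5-2, so F1-2 lay beside F5-2 at the top and F5-3 between the others. mt-Nd1, a complex I subunit, had 93045 CPM in F1-2 and 42420.2 in F5-3 against 22959 in F1-1, 27318 in F1-3, 52212 in F5-1 and 76752 in F5-2. mt-Cytb, the cytochrome b of complex III, had 115306 CPM in F1-2 and 45661 in F5-3 against 23218 in F1-1, 18283 in F1-3, 48435 in F5-1 and 55956 in F5-2. For both genes F1-2 was more than 2-fold above F5-3, and F5-3 overlapped the other 4. mt-Co1, a cytochrome oxidase subunit, had 18023 CPM in F1-2 and 37176 in F5-3 against 15886 to 53490.4, and here F1-2 overlapped them too.

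Contractile and glycolytic genes were high in F1-2 and F5-3 but shared that place with F1-1. Of 30 fast sarcomere and calcium handling genes, 7 were above all of the other 4 and 1 below, and of 20 genes of glycolysis and glycogen 8 were above and 0 below, beside 33.0% above and 11.8% below of all genes. Acta1, skeletal actin, was highest in F1-1 (129134 CPM), followed by F5-3 (95837), F1-2 (84069), F1-3 (62040.1), F5-1 (33087) and F5-2 (25524). Myl1 and Tnnt3, a fast myosin light chain and fast troponin T, were above the other 4 in both libraries, Myl1 with 103600.0 CPM in F1-2 and 109841 in F5-3 against 8576 to 75947 and Tnnt3 with 53958 CPM in F1-2 and 72062 in F5-3 against 7210.2 to 35356. Eno3, muscle enolase, had 23577 CPM in F1-2 and 25976 in F5-3 against 2433 to 15411, whereas Aldoa, aldolase, and Pgam2, phosphoglycerate mutase, overlapped the others through F1-1. Aldoa had 51288 CPM in F1-2 and 59428 in F5-3 against 60929 in F1-1, and Pgam2 14109.7 CPM in F1-2 and 20472 in F5-3 against 15728. F5-1 and F5-2 were the lowest 2 of the 6 in each of these 6 genes.

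The 2B myosin Myh4 was the main one in all 6 libraries. It took 95.7% (exact 95% interval 95.6 to 95.7) of the reads on the 4 myosin genes in F1-2 and 95.3% (95.2 to 95.4) in F5-3. The others ran from 84.5% (84.1 to 84.8) in F5-2 through 95.4% (95.3 to 95.5) in F5-1 to 99.2% (99.2 to 99.3) in F1-1 and 99.4% (99.3 to 99.4) in F1-3, and whole muscle from 89.3% to 89.7%. Myh1, the 2X myosin, separated F1-2 from the other single fibers, with 3.55% (3.50 to 3.61) against 0.188% (0.173 to 0.204) in F1-1 and 0.0943% (0.0810 to 0.109) in F1-3, whereas the pools ran from 2.25% in F5-3 to 14.1% in F5-2. Myh2, the 2A myosin, had its largest share of the 6 fiber libraries in F5-3 at 2.48% (2.42 to 2.54), above 0.519% in F5-1 and 1.42% in F5-2, and F1-2 had 0.788%, while whole muscle held 2.82% to 3.10%. Slow Myh7 had 0 of 436436 myosin reads in F1-2 and 0 of 241311 in F5-3, which allows a share of up to 0.000687% and 0.00124%. These intervals and limits cover counting error only, since reads without molecular identifiers are not independent molecules.

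Ribosomal protein genes, which build the cytosolic ribosome, gave 6 of 55 above and 1 below, a smaller share above than the 33.0% of all genes (11.8% below), and their list median was 2.30 and 2.18 in the 2 libraries against 1.04 to 2.45 in the others. Rplp0, of the large subunit's stalk, had 1094 CPM in F1-2 and 1205 in F5-3 against 224 to 1343, and Rps14 814 CPM in F1-2 and 895 in F5-3 against 485 to 1129.7, with F1-1 highest in both. Rpl4 had 894 CPM in F1-2 and 1038 in F5-3 against 148 to 947. Neuromuscular junction genes gave 3 of 9 above, the same share as over all genes (33.0%), among them Prkar1a, a regulatory subunit of protein kinase A, with 398 CPM in F1-2 and 264 in F5-3 against 106 to 241. Chrna1 and Chrnb1, subunits of the acetylcholine receptor, overlapped, with 145 CPM in F1-2 and 65.2 in F5-3 against 9.75 to 76.6, and 57 CPM in F1-2 and 67.4 in F5-3 against 64.4 to 106. Under RLE and upper-quartile factors this list had 2 above and 1 below. Regulators of muscle transcription and signalling gave 4 of 19 above, beside 33.0% of all genes, including the transcription factor Mef2c with 1299 CPM in F1-2 and 1099 in F5-3 against 649.6 to 888, and 1 below, beside 11.8%. Actc1, cardiac actin, had 9055 CPM in F1-2 and 19724 in F5-3 against 365 to 15651, and Xirp1, an actin-binding repeat protein, 142 CPM in F1-2 and 782 in F5-3 against 355 to 2990.2, so both overlapped.

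**Figure D2:**
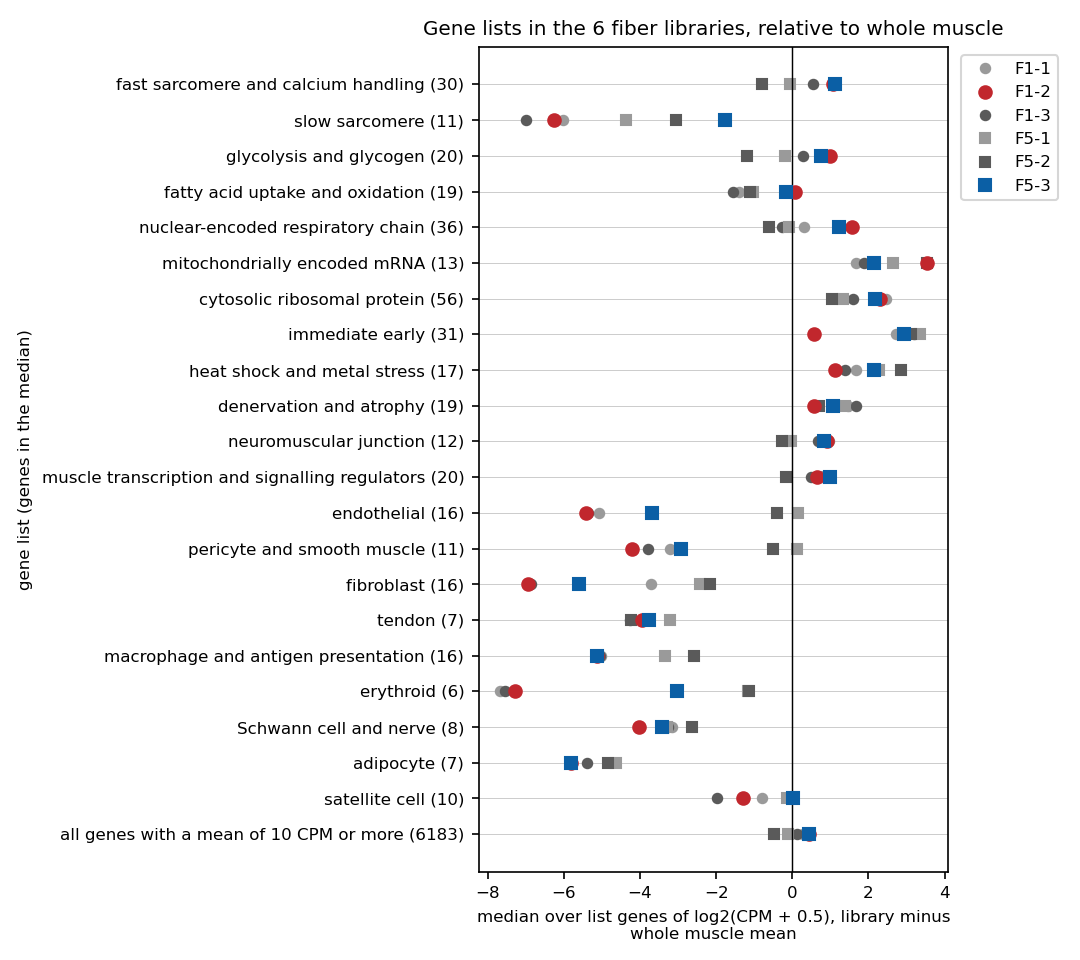
Median over the genes of each list of log2(CPM + 0.5) minus that of the whole muscle mean, for each of the 6 fiber libraries (circles, single fibers; squares, pools of 5; red, F1-2; blue, F5-3), with the number of genes in the median. In the respiratory chain and fatty acid rows the red and blue points stand to the right of all 4 gray ones, while in the endothelial and erythroid rows F5-3 lies between the single fibers and the other pools of 5.

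Outside these lists, the genes with the widest gap upward had roles in several compartments. Mgst3, a membrane glutathione transferase (chr1:167371966-167393841, minus strand), had 526 CPM in F1-2 and 415 in F5-3 against 30.9 to 91.1, with 215 to 273 in whole muscle. Prdx1, a peroxide-reducing enzyme, had 851 CPM in F1-2 and 808 in F5-3 against 56.6 to 209, and Hmox2, the constitutive heme oxygenase, 39.1 CPM in F1-2 and 36.1 in F5-3 against 0.96 to 9. Tsfm, an elongation factor of mitochondrial translation, had 28.2 CPM in F1-2 and 22.4 in F5-3 against 2.88 to 5.61. Exosc9 of the RNA exosome and Snrpd3 of the spliceosome core reached 43.7 CPM in F1-2 and 22.8 in F5-3 against 3.2 to 5.16 for the first and 169 CPM in F1-2 and 157 in F5-3 against 12 to 39.9 for the second. Emc4, part of a membrane protein insertion complex of the endoplasmic reticulum, had 159 CPM in F1-2 and 106 in F5-3 against 0.8 to 27.2. Mettl21c, a muscle protein methyltransferase, had 183 CPM in F1-2 and 175 in F5-3 against 2.88 to 42.4, and Ptgr2, a prostaglandin reductase, 67.3 CPM in F1-2 and 40.3 in F5-3 against 1.92 to 9.09. Exosc9, Hmox2, Tsfm and Ptgr2 were under 10 CPM in each of the other 4 libraries. These genes reached the minimum mean of 10 CPM only through F1-2 and F5-3. All 12 genes of the widest upward gaps stayed above the other 4 under each of the 3 scalings, but they were chosen for the width of these gaps, so this is no further evidence. The last of the 12, Mb, had a gap of 1.91 on the log2 scale, and the next gene, Bud31, also of 1.91.

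Several gene families, counted after their values were seen, also had most members above. Those named Nduf and Atp5 hold members of the respiratory chain list, which are counted again here. Mitochondrial ribosomal proteins (Mrpl and Mrps) were above all of the other 4 for 70 of 77 genes, complex I subunits and assembly factors (Nduf) for 44 of 45, ATP synthase genes (Atp5) for 16 of 17, proteasome subunits (Psma to Psmd) for 30 of 34 and mitochondrial import genes (Timm and Tomm) for 13 of 20, and 0 genes of these families were below, beside 33.0% and 11.8% of all genes. Zinc finger genes (Zfp) were mixed, with 16 of 65 above and 10 below. Histone lysine demethylases (Kdm) had 0 of 10 above and 5 below.

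**Figure D3:**
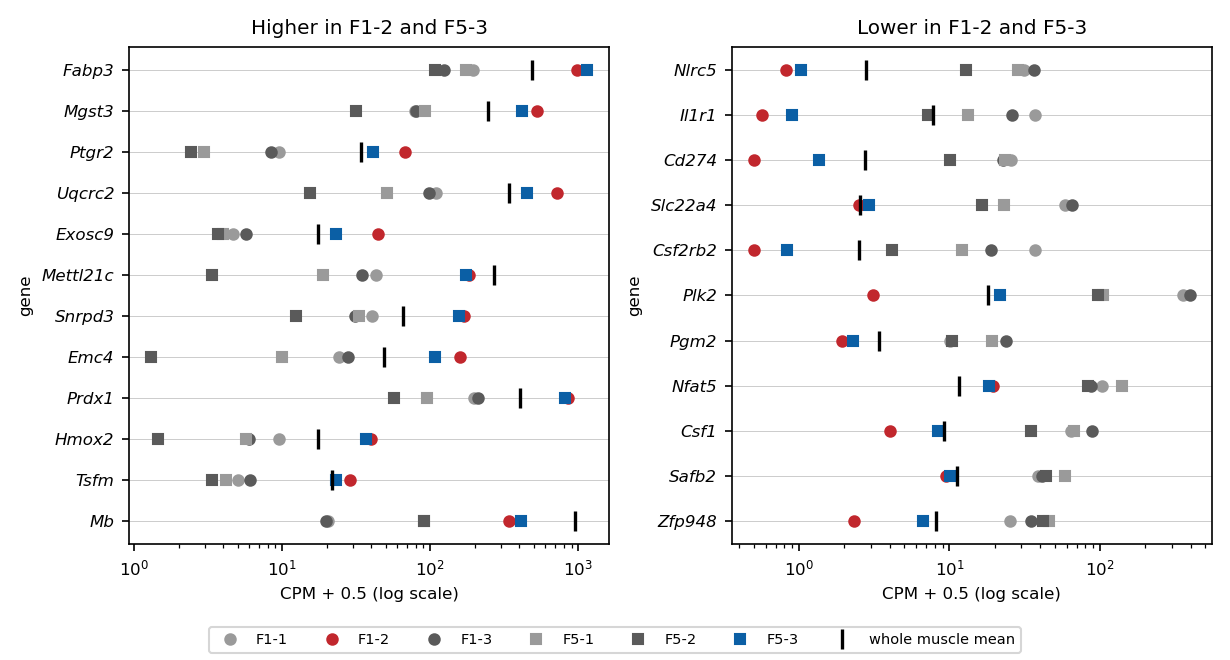
CPM + 0.5 on a log axis of the protein-coding genes with the widest gaps, 12 upward (left) and 11 downward (right), in each of the 6 fiber libraries (circles, single fibers; squares, pools of 5) and as the whole muscle mean (black bar). The red and blue points stand apart from the 4 gray ones in every row, which is how the genes were chosen.

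Among the genes with the widest downward gaps were receptors, ligands and regulators of inflammation and growth, a theme that was not tested. Nlrc5, Cd274, Il1r1, Csf2rb2 and Csf1 reached the minimum mean of 10 CPM only through the other 4 libraries. Nlrc5, the activator of MHC class I genes (chr8:94434356-94527272, plus strand), had 0.324 CPM in F1-2 and 0.527 in F5-3, against 30.9 in F1-1, 35.7 in F1-3, 28.2 in F5-1 and 12.3 in F5-2 and 2.48, 1.64 and 2.73 in whole muscle. The other 4 libraries lay above whole muscle and the 2 below it. Cd274 (PD-L1, an inhibitory ligand for T cells) had 0 CPM in F1-2 and 0.856 in F5-3 against 9.6 to 25.2, Il1r1 (the interleukin 1 receptor) 0.0649 CPM in F1-2 and 0.395 in F5-3 against 6.72 to 36.8, and Csf2rb2 (a receptor subunit for interleukin 3) 0 CPM in F1-2 and 0.329 in F5-3 against 3.68 to 36.3. Csf1, the growth factor of macrophages, had 3.5 CPM in F1-2 and 7.9 in F5-3 against 34.4 to 87.4. The 0 CPM of Cd274 and Csf2rb2 in F1-2 are counts of 0 reads, which allow a level of up to 0.195 CPM (3 reads) at its depth. Plk2, a stress-induced polo-like kinase (chr13:110395046-110400844, plus strand), had 2.6 CPM in F1-2 and 21.2 in F5-3, and the others 355 in F1-1, 397 in F1-3, 104 in F5-1 and 97.2 in F5-2, with 17.9, 15.7 and 19.2 in whole muscle. F1-1 and F1-3 were the high libraries for this gene, and F5-3 was near whole muscle.

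Among the remaining genes of the widest downward gaps, Nfat5, the transcription factor of osmotic stress, had 19 CPM in F1-2 and 17.9 in F5-3 against 82.7 to 139. Slc22a4, an organic cation transporter, had 2.01 CPM in F1-2 and 2.44 in F5-3 against 15.8 to 64.8. Pgm2, a phosphopentomutase, had 1.43 CPM in F1-2 and 1.78 in F5-3 against 9.59 to 23.3. Safb2, a nuclear scaffold protein, and Zfp948, a zinc finger gene, had 8.96 CPM in F1-2 and 9.61 in F5-3 against 38 to 57.9, and 1.82 CPM in F1-2 and 6.19 in F5-3 against 24.6 to 45.5. Slc22a4, Pgm2, Safb2 and Zfp948 also reached the minimum mean of 10 CPM only through the other 4 libraries. All 12 genes of the widest downward gaps stayed below the other 4 under each of the 3 scalings. They were chosen for the width of these gaps, so this is no further evidence. Zfp948 was the last of the 12 with a gap of -1.91, and the next gene, Fam13b, had -1.86. The nuclear long noncoding RNAs, Malat1 and Neat1, were added after their values were seen and lay lower in both, while Meg3, another one added then, overlapped, with 11.3 CPM in F1-2 and 11 in F5-3 against 2.14 to 41.3. Malat1 had 715 CPM in F1-2 and 2425 in F5-3 against 7426 in F1-1, 13041 in F1-3, 8970.2 in F5-1 and 7799 in F5-2, with 414 to 494 in whole muscle, and Neat1 213 CPM in F1-2 and 312 in F5-3 against 4098 in F1-1, 3906 in F1-3, 2097 in F5-1 and 1669.5 in F5-2, with 316 to 320.4.

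Immediate early genes divided the pair. Their list, whose members answer a stimulus within minutes, had 2 of 29 above all of the other 4 and 4 below, beside 33.0% and 11.8% of all genes (5 below under RLE factors, beside 15.63%), so its count below was near that of all genes. Its median relative to whole muscle was 0.57 in F1-2, the lowest of the 6, and 2.92 in F5-3, within the 2.72 to 3.35 of the others. Fos was above in both, with 1635 CPM in F1-2 and 2072 in F5-3 against 305 to 1015 and 7.12 to 9.35 in whole muscle, and Atf3, a stress transcription factor added after its values were seen, with 824 CPM in F1-2 and 1340.3 in F5-3 against 255 to 656. Egr1 had 549 CPM in F1-2 and 1326 in F5-3 against 1146 to 2192, and Btg2 1013 CPM in F1-2 and 1488 in F5-3 against 436 to 1681. For both of these genes F1-2 lay below F5-3, and whole muscle was far lower, at 9.98 to 14.9 for Egr1 and 22.8 to 26.5 for Btg2. Fosb, added after its values were seen, was 7.14 CPM in F1-2 and 231 in F5-3, with 33.7 and 24.1 in the other single fibers and 242 and 126 in the other pools, so F1-2 was below both other single fibers and F5-3 lay between the other pools.

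Heat shock and metal stress genes gave 3 of 17 above and 1 below, beside 33.0% and 11.8% of all genes, and 0 above and 2 below under RLE factors, beside 29.04% and 15.63%. The small heat shock genes Cryab and Hspb8 had 1962 CPM in F1-2 and 2680.1 in F5-3 against 1346 to 4620.1, and 374 CPM in F1-2 and 867 in F5-3 against 378 to 4495, with F1-1 and F1-3 highest in both. Mt1, metallothionein, had 3107 CPM in F1-2 and 2179 in F5-3 against 439.8 to 4207. Denervation and atrophy genes gave 1 of 15 above and 3 below, beside 33.0% and 11.8% of all genes, and 5 of 14 below under RLE and under upper-quartile factors, beside 15.63% and 13.85%. Trim63 (MuRF1, the atrophy ubiquitin ligase) was below in both, with 183 CPM in F1-2 and 400.0 in F5-3 against 2094 in F1-1, 2278 in F1-3, 704 in F5-1 and 549.6 in F5-2, and whole muscle held 183 to 205, so F1-2 was at its level and F5-3 above it. Ankrd1, an ankyrin repeat gene of stretched or injured muscle, had 213 CPM in F1-2 and 389 in F5-3 against 8172 in F1-1, 4771 in F1-3, 2038 in F5-1 and 379 in F5-2, so F5-3 overlapped F5-2. Gadd45b, a stress gene, was above the other 4 in both, with 430.1 CPM in F1-2 and 507 in F5-3 against 74.2 to 288. Myod1, a myogenic transcription factor, was the 1 of 4 satellite cell list genes below in both (2 of 4 under the other scalings), with 21.4 CPM in F1-2 and 104 in F5-3 against 626 in F1-1, 1017 in F1-3, 158 in F5-1 and 119 in F5-2. Hes1 and Itga7 of that list overlapped. Hes1 had 113 CPM in F1-2 and 196 in F5-3 against 8.67 to 201, and Itga7 36.7 and 47.8 against 44.3 to 87.3. The satellite cell list's median relative to whole muscle was -1.30 in F1-2 and 0.005 in F5-3, within the -1.99 to 0.01 of the other 4.

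Summed markers of endothelial cells, pericytes, fibroblasts, macrophages, red blood cells and Schwann cells were lower in F5-3 than in F5-1 and F5-2, and those of endothelial and red blood cells were near 0 in F1-2. The endothelial list, 16 genes, had a median relative to whole muscle of -5.42 in F1-2 and -3.69 in F5-3, against -5.07 and -5.37 in the other single fibers and 0.15 and -0.40 in the other pools of 5, and 8 of its genes had 0 reads in F1-2 and 0 genes in F5-3. The defining markers Pecam1 and Cdh5, added after their values were seen, had 0 and 0 CPM in F1-2 and 2.57 and 4.01 in F5-3. In F5-1 and F5-2, Pecam1 stood at 46.8 and 31.2 and Cdh5 at 51.5 and 72.1. Summed levels of fibroblast markers were 16.0 CPM in F1-2 and 95.6 in F5-3, against 58.3 to 825 in the other 4 and 4849 to 5427 in whole muscle. Erythroid genes summed to 0.779 CPM in F1-2 and 108 in F5-3, against 0.712 and 1.92 in single fibers, 387 and 456 in pools of 5 and 614 to 909.9 in whole muscle. Pericyte and smooth muscle markers summed to 170.2 and 207 CPM against 170 to 518, macrophage and antigen presentation genes to 21.3 and 49.9 against 73.7 to 284, of which Cd68 alone was 244 in F1-1 and 266 in F1-3 (list medians -5.13 in both libraries and -5.03 and -5.05 in F1-1 and F1-3), and Schwann cell genes to 4.28 and 14.5 against 15.9 to 33.9. Tendon genes summed to 44.1 and 18.0 CPM against 5.76 to 30.9 and adipocyte genes to 1224 and 487 against 77.5 to 489. In F1-2 and F5-3 most of these 2 sums came from 1 gene each, Thbs4 with 41.9 and 15.8 CPM and Car3, a carbonic anhydrase that muscle also expresses, with 1224 and 487. Of the pericyte sum 168 and 170.2 were Abcc9, a channel subunit, while Rgs5 had 0.0649 and 20.5 against 306 in F5-1. The lymphocyte and granulocyte list summed to 0 CPM in F1-2 and 5.53 in F5-3 against 2.57 to 10.2. At a mean of at least 10 CPM only 9 endothelial, 10 fibroblast, 4 erythroid, 2 pericyte, 2 macrophage, 1 tendon, 1 adipocyte, 1 Schwann cell and 0 lymphocyte genes could be compared, too few in most lists to read a count. Of these, Thbs4 and Car3 (Car3 not under RLE and upper-quartile factors) were above all of the other 4 in both libraries, and Col5a1, a fibroblast collagen, and Pmp22, a myelin gene, were below. The part of these markers in the difference between F5-3 and the other pools of 5 was not tested.

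The genes that differed most between F1-2 and F5-3 were slow fiber, mitochondrial, globin and endothelial genes, among others. Myl3 and Myl2, the slow myosin light chains, had 0.0649 and 0.195 CPM in F1-2 and 96.2 and 84.9 in F5-3. Of the other 4 only F5-2 held them above 1 CPM, at 21.6 and 12.5, and whole muscle held 143 to 244 and 75 to 153. Slow genes did not all follow: Myh7, the slow myosin heavy chain, had 0 reads in both F1-2 and F5-3. It had 3.21 CPM in F5-1, 2.56 in F5-2 and 42.3 to 124 in whole muscle. The slow sarcomere list had a median of -6.26 in F1-2 and -1.76 in F5-3, against -6.99 to -3.07 in the other 4. Of its 7 genes averaging at least 10 CPM, 0 were above and 1 below: Tpm3, slow tropomyosin, had 6.3 CPM in F1-2 and 11.4 in F5-3 against 20.4 to 118. Fabp4, the fatty acid carrier of capillaries and fat cells, Hbb-bs, a beta globin, and Tm4sf1, a membrane protein of endothelium, had 0 CPM in F1-2 and 49.6, 46.4 and 37.2 in F5-3. These genes were also low in the single fibers F1-1 and F1-3, at 0 to 3.33 CPM. The other pools were above F5-3, with 246, 197 and 132 CPM in F5-1 and 142, 291 and 46.4 in F5-2. In the other direction, mt-Co3 and mt-Atp6 had 951 and 379 CPM in F1-2 against 209 and 83.7 in F5-3. Mss51, a muscle mitochondrial gene, had 52.6 against 7.37, Fbxl22, an F-box gene of the sarcomere, 53.9 against 7.11, and Usp9x, a deubiquitinase, 128 against 28.8.

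The rule did not use gene length, and length moved with the differences. The 341 genes that were 2-fold or more higher had a median exon length of 2350 bases and the 144 lower genes one of 6307, against 4548.5 over the 6170 genes. When the genes were divided by exon length into 5 classes of equal size, 54.5% of the shortest class (median 1610.5 bases) were above all of the other 4 and 5.35% below. In the longest class (median 10902) 15.6% were above and 20.8% below, with the classes between in order. Set against the whole muscle mean, the shortest class had a median log2 level of 1.08 in F1-2 and 1.13 in F5-3, against 0.61 in F1-1, 0.15 in F1-3, -0.28 in F5-1 and -0.78 in F5-2. The longest class had 0.46 and 0.41 in the 2 libraries and 0.30 to 0.64 in the others, a narrower range over the 6. Respiratory chain genes are short, with a median exon length of 2101 bases, as are those of Nduf (1718), Atp5 (2039) and the mitochondrial ribosome (2533), whereas those of Zfp (6261) and Kdm (9141) are long. Ribosomal protein genes, with a median of 2011 bases, were as short and had 6 of 55 above. The part of gene length in the differences of these groups was not tested.

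**Figure D4:**
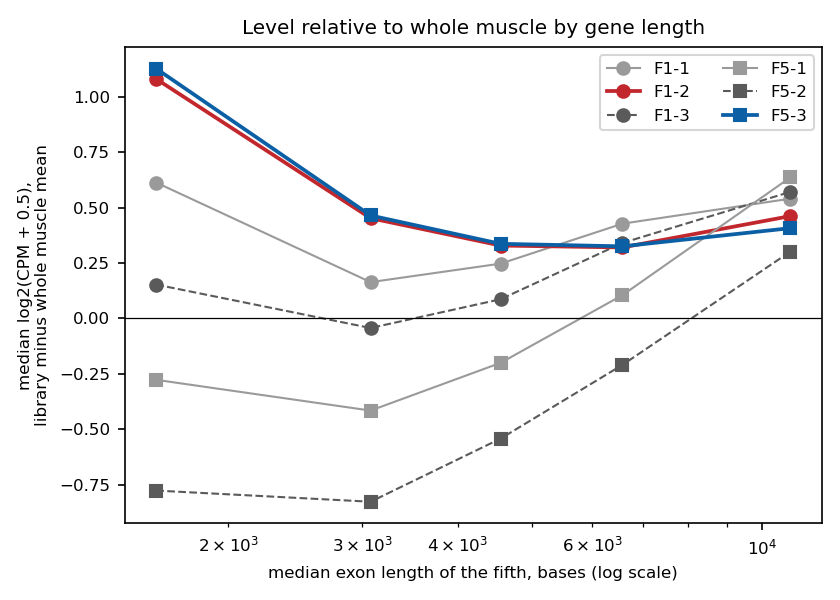
Median log2(CPM + 0.5) minus that of the whole muscle mean (y axis) over genes in 5 classes of exon length (x axis, median length in bases on a log scale), 1 line for each of the 6 fiber libraries. F1-2 and F5-3 nearly coincide in every class and are highest among the shortest genes, where F5-1 and F5-2 fall below 0.

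Tests were made between the labelled groups, with edgeR's quasi-likelihood test and Benjamini-Hochberg adjustment, once with all libraries and once without F1-2 or F5-3. Whether the 3 libraries of a group stand for 3 animals is not in the labels, and a p-value here measures only how far these libraries vary, which may be technical. As F1-2 and F5-3 were left out because they stand apart, the spread without them is smaller by that choice, and the larger counts are no independent evidence. Single fibers against pools of 5 gave 2 genes of 12700 (0.0157%) with an adjusted p under 0.05, and 1132 with an unadjusted p under 0.05. Both fell in single fibers: Hba-a2, an alpha globin (log2 fold change -9.55 ± 0.90 (SE), adjusted p = 0.0371), and Ctla2a, a cysteine protease inhibitor (-11.81 ± 1.23, adjusted p = 0.0436), had at most 0.089 CPM in the 3 single fibers. In pools 1 to 3, Hba-a2 stood at 56.5, 53.3 and 22 CPM and Ctla2a at 204, 132 and 37.2. Reads of Hba-a2 can be split with its near-identical copy Hba-a1, so its value is uncertain. DESeq2 called 422 genes in this comparison, and edgeR without a filter on low counts 768. Without F1-2 the count was 0 of 15106 (0.0%; 1839 unadjusted), as it was without F1-1, F1-3, F5-1 or F5-2. Without F5-3 it was 833 of 15081 (5.52%), and without both 3313 of 13832 (24.0%), of which 1386 rose and 1927 fell in single fibers.

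Without both, all 16 endothelial genes fell in single fibers, where with all libraries 0 of 15 tested passed with edgeR and 13 fell with DESeq2. Of 31 immediate early genes 15 fell and 4 rose without both, against 0 of 30 with all libraries (10 fell with DESeq2). Of 17 heat shock genes 7 fell and 4 rose, against 0 (6 fell with DESeq2). In the respiratory chain 5 of 36 rose and 0 fell, with a median of 0.01 on the log2 scale, against 0 calls and a median of 0.26 with all libraries. Beside these list counts without both stand, over all genes, 1386 risen and 1927 fallen of 13832 (24.0% called). With all libraries edgeR called 2 of 12700 genes, and DESeq2 called 422 (3.32%), of which 394 fell.

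Single fibers against whole muscle gave 4716 of 14028 genes (33.6%) with all libraries and 7617 of 15246 (50.0%) without F1-2, and 1753, 1540 and 1637 without whole muscle 1, 2 and 3. Pools of 5 against whole muscle gave 1307 of 14764 (8.85%), 684 higher and 623 lower (906 and 518 under RLE factors), and 7920 of 16378 (48.4%) without F5-3. It gave 202 without F5-1, 7, 46 and 45 without whole muscle 1, 2 and 3, 3072 with DESeq2 and 2535 without a filter on low counts. These 2 comparisons share the whole muscle libraries. In the respiratory chain 7 of 36 genes rose and 1 fell in single fibers (median log2 fold change 0.63), and without F1-2 7 rose and 10 fell (median 0.08). In pools of 5 the counts were 2 and 0 (median 0.21), and without F5-3 they were 8 and 14 (median -0.25). Beside these stand, over all genes, 3304 risen and 4313 fallen of 15246 in single fibers without F1-2, and 4132 and 3788 of 16378 in pools of 5 without F5-3. The balance of the calls in this list turned without F1-2 and without F5-3, and in pools of 5 so did the sign of the median. As 35 of its 36 genes were higher in F1-2 and F5-3 than in the other libraries of these kinds, that direction was set by leaving them out. It is no separate result. The calls also need every whole muscle library: without any 1 of them, 0 to 2 respiratory genes rose and 0 fell in single fibers, and 0 of either in pools of 5, where the same was seen without F5-1.

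Fatty acid genes had more falls than rises in each of 4 counts: 0 rose and 6 fell of 19 in single fibers, and 0 and 16 of 20 without F1-2, while pools of 5 gave 1 and 4 of 20, and 1 and 14 without F5-3. Over all genes falls also outnumbered rises in single fibers, with 1945 risen and 2771 fallen of 14028, and 3304 and 4313 of 15246 without F1-2. In pools of 5 the counts over all genes were 684 and 623 of 14764, and 4132 and 3788 of 16378 without F5-3. Without any 1 whole muscle library 3 fatty acid genes fell in single fibers and 0 in pools of 5, where 0 fell without F5-1 and 1 without F5-2. Fast sarcomere genes in pools of 5 had 1 risen and 0 fallen of 30, and 4 and 9 without F5-3, and glycolysis genes 1 and 0 of 20, and 1 and 6 without it. These counts without F5-3 stand beside those of all genes given above. In single fibers the fast sarcomere counts were 16 and 1, and 18 and 2 without F1-2, but 3 or 4 risen and 0 fallen without any 1 whole muscle library.

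Over all genes, 684 rose and 623 fell of 14764 in pools of 5 with all libraries, and 4132 and 3788 of 16378 without F5-3. In single fibers 1945 rose and 2771 fell of 14028, and 3304 and 4313 of 15246 without F1-2. Fibroblast genes fell in 6 of 16 cases in pools of 5 and in 16 of 16 without F5-3, and in 0 without F5-1 or any 1 whole muscle library. In single fibers 16 of 16 fell with and without F1-2, 9 without F1-3 and 5 without any 1 whole muscle library, with a median of -5.04 on the log2 scale with all libraries. Ribosomal protein genes rose in 55 of 57 cases in single fibers, and in 41 to 56 with 1 library left out. In pools of 5 they rose in 27, in 46 without F5-3, in 3 without F5-1 and in 0 without any 1 whole muscle library. Of the immediate early genes, 26 of 31 rose in pools of 5, 30 without F5-3, 17 without F5-1, and 2, 5 and 5 without whole muscle 1, 2 and 3. Endothelial genes fell in single fibers in 16 of 16 cases with all libraries and in 15 or 16 with any 1 library left out.

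Fabp3 and Uqcrc2 had no call against whole muscle with all libraries. In single fibers Fabp3 had a log2 difference from whole muscle of -0.28 ± 0.67 (SE), adjusted p = 0.765, and in pools of 5 of -0.14 ± 0.81 (SE), adjusted p = 0.933. Uqcrc2 had -0.25 ± 0.69 (SE), adjusted p = 0.807 in single fibers and -1.10 ± 1.02 (SE), adjusted p = 0.534 in pools of 5. Both genes were chosen for their gap between F1-2 and F5-3 and the rest, so the fold changes without these libraries are given with no test: -1.64 without F1-2 and -1.75 without F5-3 for Fabp3, and -1.73 and -3.33 for Uqcrc2. Cox8b rose in both comparisons with all libraries, with a log2 change of 2.23 ± 0.42 (SE), adjusted p = 0.00773 in single fibers and of 2.44 ± 0.48 (SE), adjusted p = 0.027 in pools of 5.

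**Figure D5:**
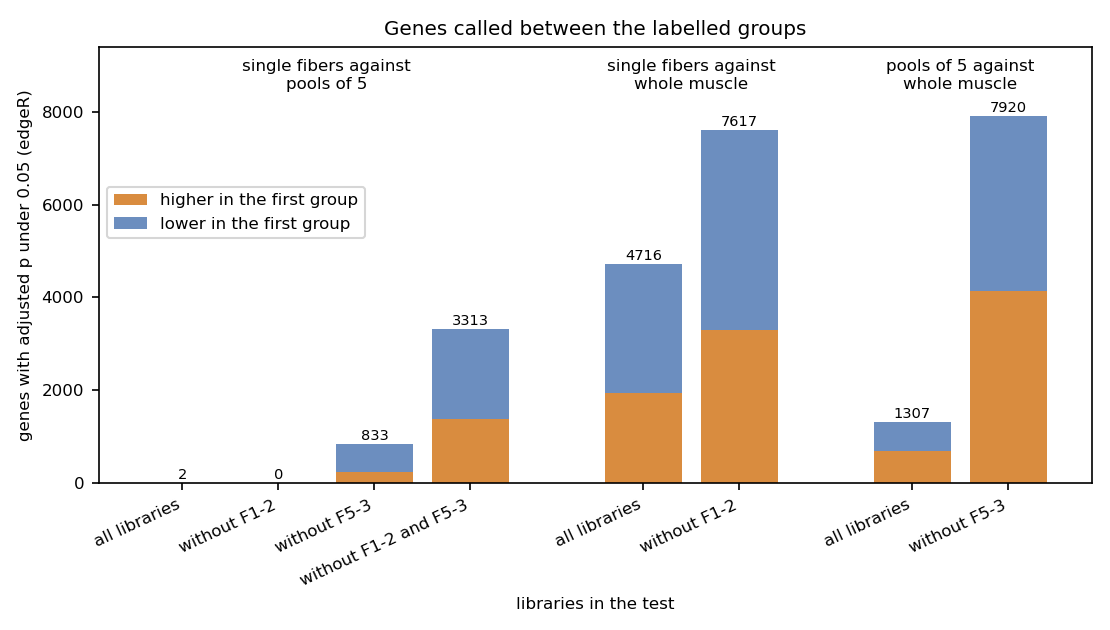
Number of genes with an edgeR adjusted p under 0.05 (y axis) in the 3 comparisons of labelled groups, with all libraries and without F1-2, F5-3 or both, split into genes higher and lower in the first group. Single fibers against pools of 5 go from 2 genes to 3313 when both libraries are left out, and pools of 5 against whole muscle from 1307 to 7920 without F5-3.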

How the data were processed

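RNA of 12 libraries was measured with SMART-Seq HT. The authors deposited whole-number read counts per Ensembl gene, made with HISAT2, SAMtools and featureCounts on GRCm38 (mm10), per the submitters' processing notes; their versions, the annotation and the strand setting are not given in the sources used here, so overlapping and antisense genes, and near-identical copies such as the globins, are uncertain. Of the identifiers, 55480 matched GENCODE release M21 and 93 did not. CPM were computed with TMM factors of edgeR 4.0.16 in R 4.3.3, and log2 values have an offset of 0.5 CPM. Groups came from the labels and were compared with glmQLFit and glmQLFTest after filterByExpr, with Benjamini-Hochberg adjustment over all genes tested and a threshold of 0.05. Where a left-out library leaves 2 in a group, the spread is pooled over both groups. No test was made between F1-2 and F5-3 and the other 4 libraries, since the correlations that chose them used every gene.

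The members, the 22 gene lists (12 for pathways, 10 for cell types) and the tests were chosen with earlier results of these data known. The genes named were the 12 protein-coding genes with the widest gap in each direction between the nearer of F1-2 and F5-3 and the nearest of the other 4 (mean of 10 CPM or more over the 6, no predicted genes), the 3 members of each list with the highest mean CPM, the 4 myosins, and the 5 genes per direction that differed most between F1-2 and F5-3; others were chosen after their values were seen. Of the 12 with the widest downward gaps, 1 is not reported here. List medians used members with a mean of 1 CPM or more. Alternatives were other scalings, filters and offsets, DESeq2 1.42.0, the replicate number as a block, and each library left out. On simulated counts at a dispersion of 0.05, the fits recovered 100% of 4-fold changes in all 3 comparisons and 58%, 45% and 54% of 2-fold changes in single fibers against pools of 5, single fibers against whole muscle and pools of 5 against whole muscle (13121, 14129 and 14656 genes). That dispersion was set and not estimated from these libraries. The simulation therefore checks the code and does not measure which share of real changes the tests find here.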

Additional observations from a re-analysis of the deposited data

How the results depend on the processing

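The 35 of 36 respiratory chain genes above the other 4 libraries were 34 and 35 under RLE and upper-quartile factors. The gap of the respiratory chain's list median between the lower of F1-2 and F5-3 and the highest of the other 4, 0.92 on the log2 scale, was 0.86 under RLE factors, 0.85 under upper-quartile factors and 0.90 with an offset of 5 CPM. That of the fatty acid list, 0.88, was 0.54, 0.69 and 0.86. The r between F1-2 and F5-3 was 0.9651 at a minimum mean of 1 CPM and 0.9364 as Spearman's rho, against 0.9436. The 341 genes higher by 2-fold were 226 under RLE factors and 355 to 698 with 1 library left out, with 698 without F1-1 and 651 without F5-3. The 144 lower genes were 368 at a minimum mean of 1 CPM, 63 with an offset of 5 CPM and 142 to 437 with 1 library left out, with 228 without F5-2 and 437 without F5-3. The cause of these changes was not tested.

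Between the labelled groups, DESeq2 called 422 genes in single fibers against pools of 5 and 3072 in pools of 5 against whole muscle, against 2 and 1307 with edgeR, and without a filter on low counts edgeR called 768 and 2535. Leaving out 1 library gave 0 to 833 genes in single fibers against pools of 5 (833 without F5-3, 3313 without F1-2 and F5-3, 0 without each of the other 5), 1540 to 7617 in single fibers against whole muscle (7617 without F1-2; 1753, 1540 and 1637 without whole muscle 1, 2 and 3) and 7 to 7920 in pools of 5 against whole muscle (7920 without F5-3, 202 without F5-1; 7, 46 and 45 without whole muscle 1, 2 and 3). A group of 2 is assumed to vary like the other group. Depth limits the lowest genes: in F1-2, 3 reads are 0.195 CPM.

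Whether the replicate numbers pair the libraries is not in the labels. Deviations from a group mean sum to 0 within the group, and F1-2 and F5-3 stand apart in theirs, so the correlations below cannot settle it. Between single fibers and pools of 5 the deviations from the group means correlated at 0.51, -0.42 and -0.43 for numbers 1, 2 and 3 (0.56 for F1-2 with F5-3), between single fibers and whole muscle at -0.16, 0.02 and -0.16, and between pools of 5 and whole muscle at 0.00, -0.13 and -0.05. With the replicate block the counts were 0 in single fibers against pools of 5 (717 with an unadjusted p under 0.05), 3132 in single fibers against whole muscle and 231 in pools of 5 against whole muscle.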
